A study of Drosophila melanogaster with 47 samples.

Results

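Cmi (Cara Mitad) was mapped on chromatin of Drosophila melanogaster embryos of 0 to 8 h by chromatin immunoprecipitation and sequencing, and the results below describe every peak of its deposited list. All peaks of that list were taken, 1685 of the 12745 peaks in the 16 lists of the series, and no measured value chose them. The Cmi group held 2 immunoprecipitated replicates, made with the antibody KW1-cmi from the Dingwall laboratory, and 1 input sample of chromatin that was not enriched. All 3 samples carried the source label Exd-GFP, a name that reads as a GFP tag on Exd (extradenticle, a homeodomain partner of Hox proteins). The labels give no further genotype and do not say whether the replicates came from separate embryo collections. The antibody was thus directed at Cmi in chromatin labelled for another, tagged protein. The list named for both replicates carries no value per replicate, so replicate spread could not be measured and the intervals below cover counting error only.

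The 15 other lists served for comparison and covered 13 regulators. From embryos came br (broad, 0 to 8 h, antibody KW1-br-core), Stat92E (0 to 12 h, source label Stat92E-GFP), Hr78 (8 to 16 h, source label Hr78-GFP) and prd (0 to 12 h, antibodies RF12 and RF13). The stage labelled W3L, read here as larvae, gave Notch, Lola, AbdB and a second Hr78 list, all from sources labelled as GFP-tagged and precipitated with anti-GFP, as were Stat92E and embryonic Hr78. Kc167 cells, an established line of embryonic origin, gave Su(H), h (hairy), insv and dm, S2 cells gave CG8478 and adult females gave cnc. Read depth was unknown for all of these samples.

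Cmi belongs to the Trr complex, the fly relative of the mammalian MLL3 and MLL4 coactivator complexes. Cmi, which the RefSeq gene table lists as Lpt, corresponds to the part of the mammalian proteins that carries PHD fingers, while Trr carries the histone methyltransferase domain. The complex places methyl groups on histone H3 at enhancers and is known as a coactivator of the ecdysone receptor.

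Cmi peaks were of moderate height and varied much more in width than in fold enrichment. Fold enrichment, the authors' linear ratio of signal over background at a peak, had a median of 3.29 over the 1685 peaks and ran from 2.10 to 7.14. It lay under 4 in 1449 peaks and reached 5 or more in 55. Width had a median of 411 bp, with the middle of the list between 238 and 678 bp, and the extremes were 66 and 3473 bp. The list held 329 peaks narrower than 200 bp and 165 wider than 1000 bp. The score, the authors' −log10 p of a peak, had a median of 8.20 and ran from 6.47 to 32.9. Across the 1680 peaks on the main arms, score and fold followed one another closely (Spearman's rho 0.94) and width followed score less so (rho 0.55). These are correlations across peaks of 1 list, which are not independent and share its reads. Together the peaks on the arms covered 860 kb.

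Cmi was called on every main chromosome arm, most densely on 2R and least densely on 2L and 4. There were 364 peaks on 2R, or 17.3 per Mb (95% exact Poisson interval 15.6 to 19.2). X held 326 (14.7 per Mb, 13.1 to 16.4), 3R held 395 (14.2, 12.8 to 15.6) and 3L held 331 (13.5, 12.1 to 15.1). The neighbouring values of X, 3R and 3L lay within one another's intervals. Arm 2L held 254 peaks at 11.1 per Mb (9.74 to 12.5), and the small arm 4 held 10 at 8.19 per Mb (3.93 to 15.1). As a share of its own list, Cmi had 21.7% of peaks on 2R (95% Clopper-Pearson interval 19.7 to 23.7), against 20.03% of the peaks of the other lists. On 2L the shares were 15.1% of Cmi peaks (13.4 to 16.9) and 15.8% of the peaks of the other lists. The values of the other lists lay inside the Cmi intervals on both arms, so the order of 2R and 2L was near that over all lists. Cmi had 0.595% of peaks on arm 4 (0.286 to 1.09), against 1.95% of the peaks of the other lists. On X the shares were 19.4% of Cmi peaks (17.5 to 21.4) and 21.1% of the peaks of the other lists. The other 5 Cmi peaks lay on unplaced scaffolds. Their folds ran from 2.10 to 2.88, where the lowest fold on the arms was 2.57, and their median width was 98 bp. Densities are per Mb between the first and last peak of any list on an arm.

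All positions below are on build dm3, counted from 1. At the 10 peaks with the highest score, the most frequent companion of Cmi was h, a basic helix-loop-helix repressor of the Hes family that acts in embryonic segmentation and was mapped in Kc167 cells. An h peak overlapped 8 of these 10 Cmi peaks, and at 5 of the 8 the summits lay within 50 bp of one another. The highest peak of the list was found on 3R at 7094796 to 7095081, with a fold of 7.14 and a score of 32.9. The h summit lay 8 bp from its summit and the br summit 5 bp. The next, on 3R at 12624481 to 12624755, had a fold of 6.86 and held h (summit 5 bp away), Notch (2 bp) and prd with RF12 (240 bp). It was also a narrow peak, 275 bp wide, and the nearest other Cmi peak lay 26699 bp away.

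The peak of rank 3, on 3R at 25541594 to 25543479, was 1886 bp wide with a fold of 6.85 and overlapped the h peak that ranked 2 of 216 in its own list, although those summits lay 817 bp apart. On 2R at 15884638 to 15885614 the fold was 6.82, h was the only other regulator and its summit coincided with that of Cmi at a distance of 0 bp. On 2R at 16771644 to 16772298 the fold was 6.62, with the h peak of rank 3 of 216 (summit 118 bp away) and a prd RF12 summit 6 bp away. The peak of arm 4 at 445260 to 445659, with a fold of 6.67, had a prd RF12 summit 2 bp and an h summit 42 bp away. The peak on 2L at 2751780 to 2753490 (fold 6.23) held Su(H), insv and h at 574 to 576 bp from its summit. Both peaks without h were shared with CG8478, a regulator known here by its gene number alone. They lay on 3R at 12075030 to 12076663 (fold 6.12, also with Notch and Su(H)) and on 2R at 17593319 to 17593941 (fold 6.29). The last of the 10, on 3R at 17010457 to 17010887 (fold 5.81), held h, Notch, CG8478 and both Hr78 lists, with all 5 summits within 50 bp of that of Cmi.

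The sharing with h was concentrated at the top of the Cmi list and fell away quickly below it. Over the whole list 71 of 1680 Cmi peaks overlapped an h peak (4.23%, 95% Clopper-Pearson interval 3.32 to 5.30), while the background, the peaks of all lists of other regulators that overlapped h, stood at 3.20%. Among the 20 highest-scoring Cmi peaks 13 did so, among the highest 50 there were 18, and among the highest 100 there were 29 (29.0%, 20.4 to 38.9). In 10 bins of 168 peaks by score, the first bin had 35 peaks with h (20.8%). Each of the next 3 bins had 7 or 8, and each of the 6 lowest had 1 to 4. A rise toward the top was not particular to h. The share with any other list was 43.5% in the lowest bin and 73.8% in the first. The share with 3 or more other regulators was 12.5% and 33.3%, and that with embryonic Hr78 4.76% and 16.7%. Stat92E (2.38% and 1.19%) and dm (2.38% and 1.79%) did not rise. Of the 29 among the highest 100, 23 had the h summit within 50 bp. These 29 peaks had a median fold of 5.40 and a median width of 655 bp, against 4.88 and 919 bp for the 71 without h. Within these 100, the peaks with h were thus the narrower ones by their median. This did not hold over the whole list. There the median Cmi peak that overlapped h was 536 bp wide, while the median over all peaks on the arms was 411.5 bp. Among peaks no wider than the median of 411.5 bp, 23 of 247 with a score above the list's middle had h (9.31%) and 9 of 593 below it (1.52%). Among wider peaks the counts were 37 of 593 (6.24%) and 2 of 247 (0.810%).

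**Figure D1:**
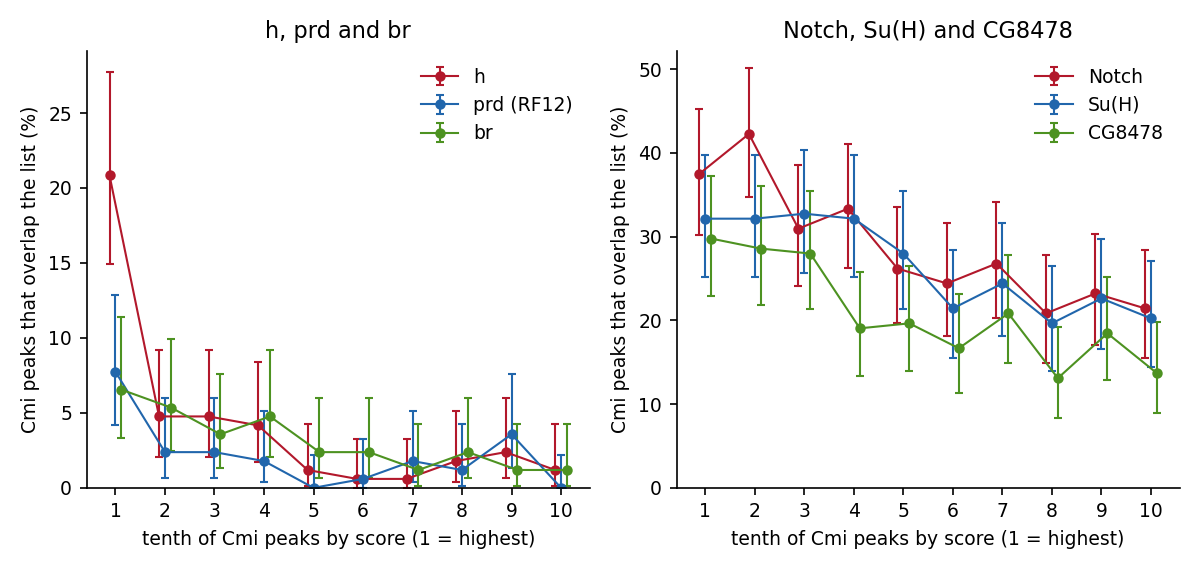
Share of Cmi peaks that overlap a peak of another list (vertical axes, %) in 10 bins of 168 Cmi peaks ordered by score (horizontal axes, 1 = highest). Left, h, prd with RF12 and br; right, Notch, Su(H) and CG8478; points are shares and bars 95% Clopper-Pearson intervals. For h the first bin stands at 20.8% and no later bin exceeds 4.76%. Su(H) moves between 32.7% and 19.6%, Notch between 42.3% and 20.8% and CG8478 between 29.8% and 13.1%.

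At the highest 100 the same count in the other lists was lower, although the interval of insv overlapped that of Cmi. Of the 100 highest-scoring peaks of a list, h overlapped 29 in Cmi, 15 in insv (8.65% to 23.5%), 11 in larval Hr78 (5.62% to 18.8%), 9 in Su(H) and between 0 and 7 in the remaining lists (dm had 61 peaks on the arms, of which 0 overlapped h, which allows up to 5.87% by the upper Clopper-Pearson bound). Each of these groups has 1 list, so this difference has no replicate check and was not tested. A cut at 100 peaks also reaches further down a short list, such as insv with 217 peaks on the arms or prd RF13 with 130, than down the 1680 of Cmi. Over all peaks on the arms, h overlapped larger shares of insv (12.9%), Stat92E (5.35%) and embryonic Hr78 (4.65%) than of Cmi (4.23%). The remaining lists had smaller shares than Cmi. Seen from the h list, 76 of its 209 peaks on the arms overlapped Cmi (36.4%, 29.8 to 43.3). Notch overlapped nearly as many of the 209, 75 (35.9%), while Su(H) overlapped 54 (25.8%) and CG8478 36 (17.2%). Cmi was present at 9 of the 10 highest-scoring h peaks and at 29 of the highest 50 (58.0%, 43.2 to 71.8). The h and Cmi lists came from different material, antibodies and input samples.

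**Figure D2:**
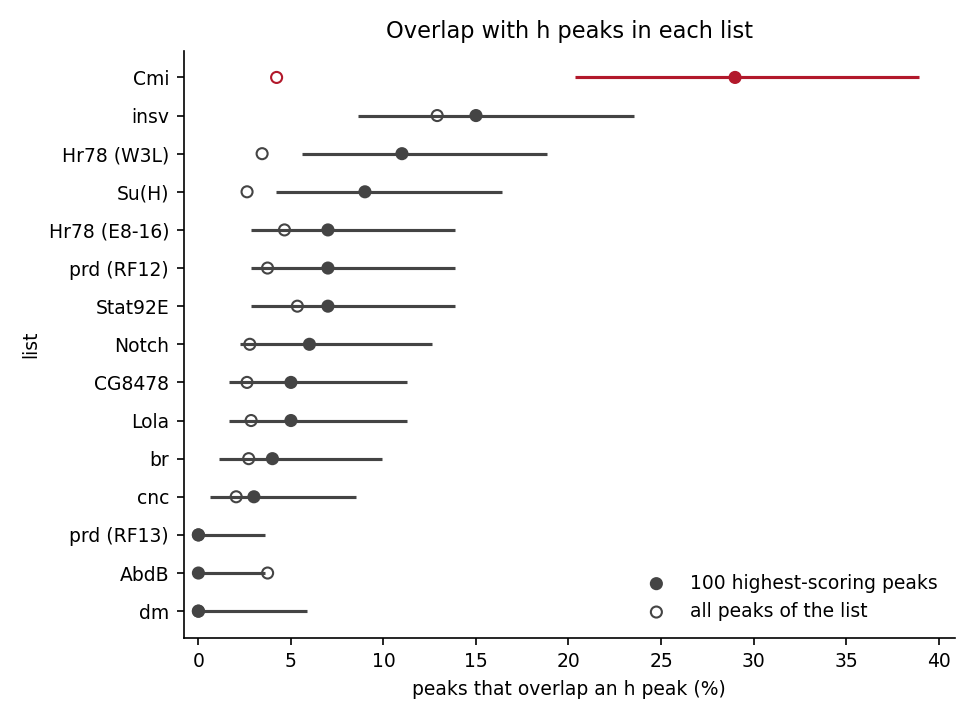
Share of peaks that overlap an h peak (horizontal axis, %) for Cmi and the 14 other lists (vertical axis). Filled points are the 100 highest-scoring peaks of a list (61 for dm) with 95% Clopper-Pearson intervals, and open points all its peaks on the arms. Cmi has 29.0% at its highest peaks and 4.23% over all, and the nearest list, insv, has 15% and 12.9%.

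Summits of h and of prd with RF12 lay closer to the Cmi summit than those of most other lists. At the 71 Cmi peaks shared with h the median distance between summits was 32 bp, with 41 (57.7%) within 50 bp. At the 36 shared with prd RF12, the paired-domain pair-rule protein, it was 22.5 bp, with 26 (72.2%) within 50 bp. Embryonic Hr78, a nuclear receptor, followed at 58.5 bp (45.5% within 50 bp) and dm, the fly Myc protein, at 57 bp over 19 peaks. Medians were 92 bp for larval Hr78, 96 bp for CG8478, 103.5 bp for Notch and 108.5 bp for Su(H), with 32.5% to 37.0% within 50 bp. They were longest for br (181 bp), prd with RF13 (213 bp) and cnc (242 bp), the fly relative of Nrf2. The peaks of the lists differ in width, and wider peaks can overlap with summits further apart. The Cmi peaks shared with prd RF12 had a median width of 280.5 bp and those shared with RF13 one of 643 bp. Close h summits were also found in other lists, with a median distance of 20 bp for embryonic Hr78 and 37.5 bp for Notch. Of the Cmi peaks with h, 13 of 71 also held prd RF12 (18.3%, 10.1 to 29.3), against 23 of the 1609 without h (1.43%, 0.908 to 2.14). The insv list showed a similar contrast, at 15.5% (8.00 to 26.0) of the Cmi peaks with h and 3.11% of those without. Over the whole h list, prd RF12 overlapped 13 of 209 peaks (6.22%).

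**Figure D3:**
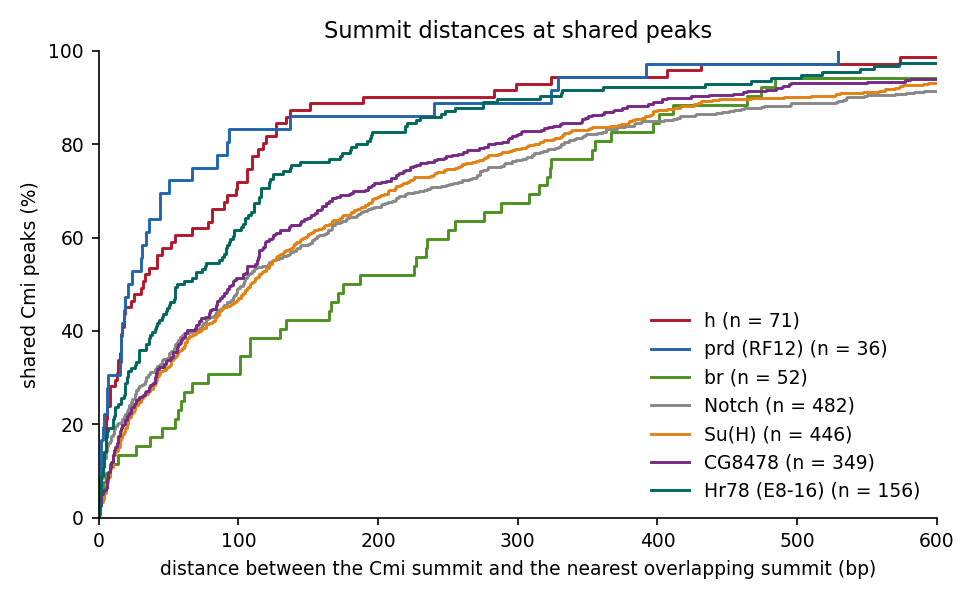
Cumulative share of shared Cmi peaks (vertical axis, %) by the distance from the Cmi summit to the nearest summit of an overlapping peak of the named list (horizontal axis, bp, drawn up to 600). The lines for prd with RF12 (n = 36) and h (n = 71) rise first, with medians of 22.5 and 32 bp, and that of br (n = 52) last, with a median of 181 bp.

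Slightly more Cmi peaks than not lay where another regulator was called. Of the 1680 peaks on the arms, 901 overlapped at least 1 of the other 13 regulators (53.6%, 51.2 to 56.0), against a background of 68.0% of the 10782 peaks of the other lists. With 3 or more other regulators there were 353 Cmi peaks (21.0%, 19.1 to 23.0), against 29.0% of the peaks of the other lists. Both Cmi shares lay below the background, for which Cmi itself counted as 1 of the other regulators. That background includes the lists made with anti-GFP, which often share places with one another. Notch overlapped 90.9% of AbdB peaks, 84.5% of larval Hr78 peaks and 83.6% of embryonic Hr78 peaks. These shares were not set against a background without the anti-GFP lists. Another 350 Cmi peaks had 1 other regulator, 198 had 2, and 110 had 5 or more (6.55%).

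By number of shared peaks, Notch, the receptor whose intracellular part enters the nucleus, came first, followed by Su(H), the DNA-binding factor of the Notch pathway, and CG8478. Notch overlapped 482 Cmi peaks (28.7%, 26.5 to 30.9; background 48.5%). Su(H) overlapped 446 (26.5%, 24.4 to 28.7; background 22.3%) and CG8478 349 (20.8%, 18.9 to 22.8; background 22.4%). The shares of Notch and Su(H) overlapped in their intervals, and that of CG8478 lay below both. Next came larval Hr78 with 300 peaks (17.9%; background 29.1%), AbdB, a Hox protein, with 189 (11.2%, 9.78 to 12.9; background 21.3%), and embryonic Hr78 with 156 (9.29%; background 16.4%). The remaining lists were short. Of these, insv, a corepressor that acts with Su(H), overlapped 61 Cmi peaks (3.63%; background 4.09%), Lola, a BTB zinc finger protein, 44 (2.62%; background 5.64%), and Stat92E, the transcription factor of the JAK-STAT pathway, 43 (2.56%; background 4.61%). The prd list of RF12 overlapped 36 (2.14%; background 2.68%), cnc 35 (2.08%; background 2.79%), the prd list of RF13 27 (1.61%; background 1.19%) and dm 19 (1.13%; background 0.625%).

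The background of the lists made with anti-GFP was higher than that of the other lists alone. Over the peaks of the 9 lists made with other antibodies, Notch overlapped 28.5%, larval Hr78 17.9%, AbdB 12.2%, embryonic Hr78 9.11% and Lola 2.63%. Each of these values lay inside the interval of the Cmi share for the same list, which was 16.1 to 19.8 for larval Hr78, 7.94 to 10.8 for embryonic Hr78 and 1.91 to 3.50 for Lola. Stat92E was the exception among the anti-GFP lists, with 2.56% of Cmi peaks (1.86 to 3.43) and 1.72% of the peaks of those 9 lists. For a list that belongs to those 9, the lists of the same regulator were left out, so that 8 remained, or 7 for prd. The values for Su(H) (25.8%), CG8478 (19.5%), br (2.54%) and prd RF13 (1.64%) also lay inside the Cmi intervals. Those for h (3.00%), prd RF12 (1.38%) and dm (0.352%) lay below them, the Cmi intervals of prd RF12 and dm being 1.51 to 2.95 and 0.682 to 1.76. Those for insv (5.23%) and cnc (3.59%) lay above, with Cmi intervals of 2.79 to 4.64 and 1.46 to 2.89.

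**Figure D4:**
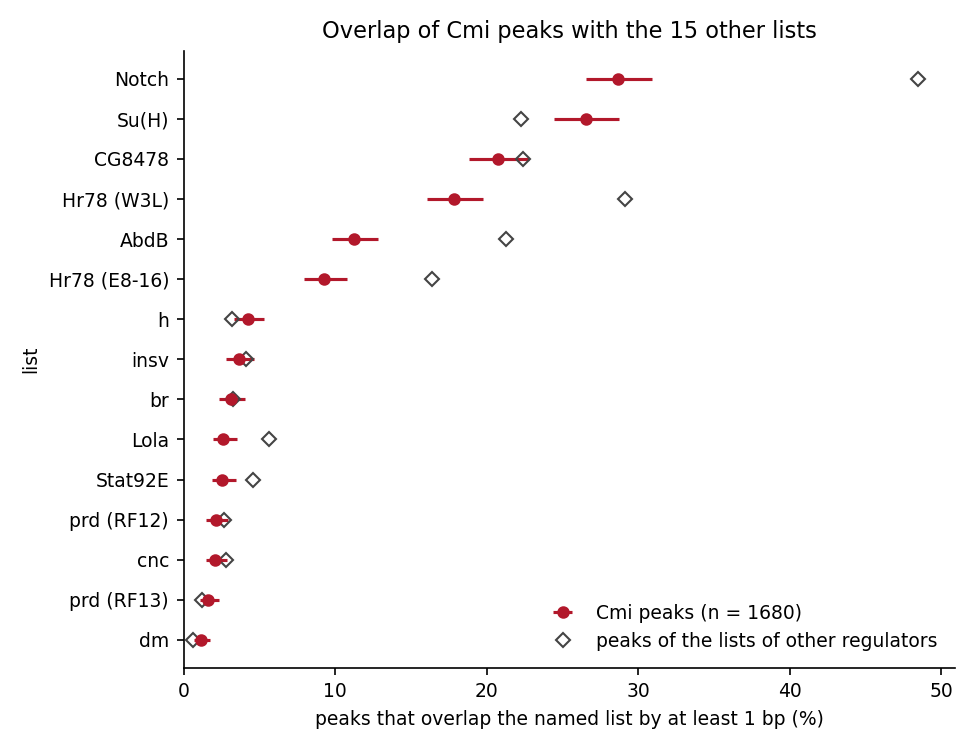
Share of peaks that overlap each of the 15 other lists by at least 1 bp (horizontal axis, %). Red points are the 1680 Cmi peaks on the arms with 95% Clopper-Pearson intervals, and open diamonds the peaks of all lists of other regulators. The diamonds lie right of the points for Notch (48.5% beside 28.7%), both Hr78 lists, AbdB, Lola and Stat92E, the 6 lists made with anti-GFP, and left of the point for Su(H) (22.3% beside 26.5%).

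Notch was found more often at Cmi peaks that also held CG8478 or Su(H) than at those without. Of the Cmi peaks with CG8478, 66.8% also held Notch (61.5 to 71.7), against 18.7% of those without CG8478. Of those with Su(H), 47.3% held Notch (42.6 to 52.1), against 22.0% of those without Su(H). With or without Cmi, Notch overlapped 40.7% of all CG8478 peaks and 26.3% of all Su(H) peaks on the arms. Cmi peaks with all 3 of Notch, Su(H) and CG8478 numbered 129 (7.68%) and Cmi peaks with at least 1 of them 772 (46.0%). Among the 203 combinations of lists, Cmi without any other list was the most frequent, with 779 peaks, followed by Cmi with Su(H) alone (122), Notch alone (79), CG8478 alone (37), CG8478 with Su(H) (32), Notch with Su(H) (29) and h alone (27). The 27 peaks with h as the only other regulator had a median fold of 3.98, where the 779 peaks with none had 3.21. The Cmi peaks shared with CG8478, Su(H) and Notch had median widths of 544, 527.5 and 505 bp, against 329 bp for the peaks with no other regulator. The part of width in this joint sharing was not tested.

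The only other list of the same stage was br, the BTB zinc finger protein of the early ecdysone response. The share of Cmi peaks that it overlapped was near its background. The br samples had the same stage label as those of Cmi but a different source label. The br list overlapped 52 Cmi peaks (3.10%, 2.32 to 4.04; background 3.29%), and 55 of its 368 peaks overlapped Cmi (14.9%, 11.5 to 19.0). Among the 100 highest-scoring Cmi peaks it overlapped 8 (3.52% to 15.2%). The Cmi peaks shared with br were wide, with a median of 621.5 bp, and had a median fold of 3.63. The highest of them were those of rank 1 and 3 in the Cmi list, described above. The next was on 3R at 12060958 to 12062609 (fold 5.30), with AbdB, CG8478, Notch and Su(H) as well, followed by 3R at 25597772 to 25599068 (fold 5.10) and X at 2015829 to 2018166 (fold 5.14). The br peaks shared with Cmi were not the highest of the br list, with 16 of its 92 highest-scoring peaks (17.4%) and 15 of its 92 lowest-scoring ones (16.3%). Any of the 5 embryo lists overlapped 264 Cmi peaks (15.7%), any of the 5 cell line lists 666 (39.6%) and any of the 4 larval lists 550 (32.7%). Those sets held 1721, 3836 and 4735 peaks on the arms, so the shares cannot be read as likeness of material.

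Cmi peaks with more companions, up to 6, were mostly wider and higher. Median width was 329 bp for the 779 peaks with no other regulator, 411.5 bp with 1, 490 bp with 2, 548 bp with 3, 508 bp with 4, 577.5 bp with 5 and 745 bp for the 35 peaks with 6. Median fold moved less, with 3.21, 3.31, 3.35, 3.48, 3.44, 3.60 and 3.63 for the same groups. Of the 901 peaks with other regulators, 517 scored above the list's median (57.4%, 54.1 to 60.6), against 323 of the 779 without (41.5%, 38.0 to 45.0). Above the median width the shares were 72.5% and 67.1%, with intervals that overlapped (68.6 to 76.3 and 61.5 to 72.4). Up to the median width they were 34.8% (29.9 to 40.0) and 25.3% (21.5 to 29.5). Width was tied to sharing itself, since 64.2% of the wider peaks and 43.1% of the narrower ones had another regulator.

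The partner peaks that Cmi met were not always the strongest of their own list. Among the highest-scoring 25% of a list, Cmi overlapped 29 of 52 h peaks (55.8%), 131 of 333 CG8478 peaks (39.3%), 175 of 504 Su(H) peaks (34.7%) and 10 of 15 dm peaks. Among the lowest-scoring 25% it overlapped 12 of 53 h peaks (22.6%), 50 of 334 CG8478 peaks, 91 of 504 Su(H) peaks (18.1%) and 3 of 16 dm peaks. The order was the opposite for embryonic Hr78, with 30 of its 172 highest (17.4%) and 56 of its 172 lowest (32.6%). In small counts it was also the opposite for insv, with 10 of 54 and 15 of 55. For Notch the shares were 20.6% and 14.5% and for AbdB 28.9% and 23.8%, while larval Hr78 had the lower share at its highest peaks (21.5% and 24.3%). The counts were 12 of 32 and 4 of 33 for prd RF13, 11 of 87 and 4 of 87 for prd RF12, and 10 of 79 and 12 of 79 for Lola.

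The Cmi peaks with the most companions differed in width, and the 7 peaks with 7 other regulators had a median width of 371 bp, below that of the list. On 3R at 25597772 to 25599068 Cmi (fold 5.10, 1297 bp) shared a place with 9 other regulators, all of them except AbdB, prd, dm and Stat92E. On X at 12629111 to 12630605 (fold 5.01, 1495 bp) there were 8, and the CG8478 summit lay 6 bp from that of Cmi. Regions with 7 lay on 3L at 16044970 to 16046415 (fold 4.96) and on X at 2015829 to 2018166 (fold 5.14). A further peak with 7, on X at 8544872 to 8545242, was narrow (371 bp) with a fold of 3.73 and held prd RF12, AbdB, CG8478, both Hr78 lists, dm, Notch and Stat92E, all with summits within 116 bp of that of Cmi. The widest Cmi peak, 3473 bp on 3R at 7603350 to 7606822 (fold 5.38), overlapped 5 regulators, of which CG8478, Notch and Su(H) had their summits 2190 to 2424 bp from that of Cmi. The fourth widest, 2574 bp on 3R at 17465870 to 17468443 (fold 4.06), had none.

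Cmi also had strong peaks of its own. The highest-scoring without another regulator ranked 14 in the list and lay on 3R at 2798747 to 2799316 (fold 5.66, score 23.1). It was followed by 3R at 26620379 to 26620890 (rank 16, fold 5.53), 3L at 10848320 to 10849042 (rank 19, fold 5.55), 2R at 8845796 to 8846841 (rank 25, fold 5.24) and 3R at 19711705 to 19713456 (rank 26, fold 4.61). Among the 100 highest-scoring Cmi peaks, 74 had another regulator.

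Cmi peaks lay in groups along the chromosomes. Of the 1680 peaks, 1032 (61.4%, 59.1 to 63.8) had another Cmi peak within 5 kb, and the median gap to the nearest Cmi peak was 1512 bp. Joining peaks less than 5 kb apart gave 996 groups. Of these, 648 held 1 peak, 302 held 2 to 4 and 46 held 5 or more, the last with 282 peaks (16.8%). The largest group held 12 peaks on 3L at 10836019 to 10854238, and the next 10 peaks on 2R at 18564618 to 18578664. Peaks with a Cmi neighbour within 5 kb were shared with other regulators about as often as those without, 52.7% of 1032 (49.6 to 55.8) and 55.1% of 648 (51.2 to 59.0). With each list cut to its 1249 best peaks, 55.2% of Cmi peaks (52.4 to 58.0) had a neighbour of the same list within 5 kb, beside 55.8% for CG8478, 54.0% for Su(H), 40.8% for larval Hr78 and 26.2% for Notch. The Cmi share differed from those of CG8478 and Su(H) by less than the counting interval. Neighbouring peaks may be parts of 1 broad enriched region that the peak caller split, which was not tested.

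The 5 windows of 100 kb with the most Cmi peaks differed widely in what else was called there. Of 1202 windows on the arms, 586 held no Cmi peak and 16 held 10 or more, together 191 peaks (11.4%). The window on 3R from 21800001 to 21900000 held most, 16 Cmi peaks between 21821841 and 21868687 with folds up to 4.22. Of these 10 had no other regulator, and Notch, Su(H), CG8478 and AbdB overlapped 3 each. The window on 3R from 12000001 to 12100000 held 15 Cmi peaks with a median fold of 3.87 and folds up to 6.12. There CG8478 overlapped 8 and Notch 6 of the Cmi peaks, and 6 Cmi peaks had 3 or more other regulators. The window on 2R from 6400001 to 6500000 also held 15 Cmi peaks, beside 16 of CG8478 and 12 of Su(H), but only 1 Cmi peak overlapped CG8478 and 4 overlapped Su(H). The window on 3L from 10800001 to 10900000 held 13 Cmi peaks, 9 of them with no other regulator. The window on 3L from 18200001 to 18300000 held 13 as well, with folds up to 4.95, where all 15 other lists together had 1 peak, of h. The other 12 Cmi peaks there stood alone. Which genes lie there was not analysed here.

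**Figure D5:**
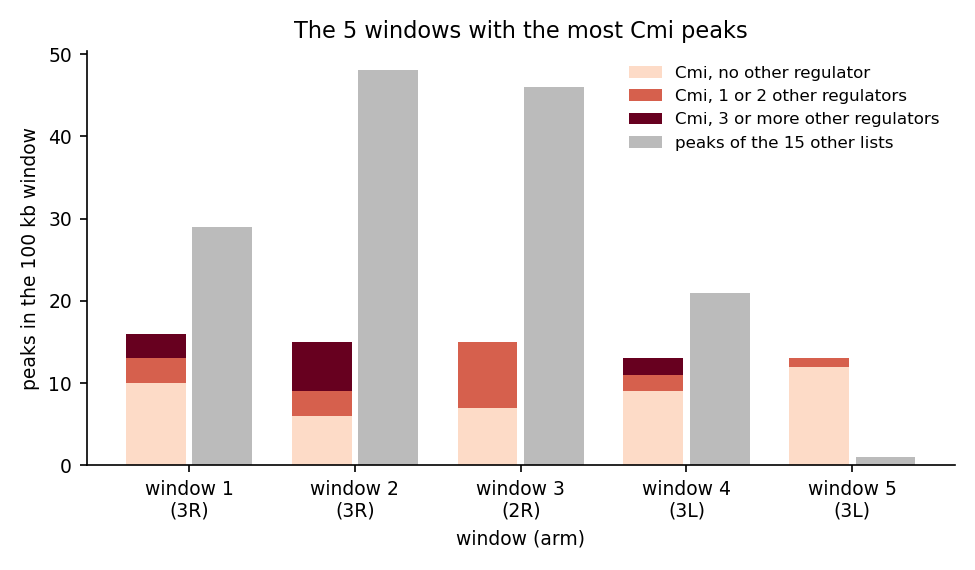
Number of peaks (vertical axis) in the 5 windows of 100 kb with the most Cmi peaks (horizontal axis, with the arm). Stacked bars are Cmi peaks by number of other regulators and grey bars the peaks of the 15 other lists together. The windows hold 16, 15, 15, 13 and 13 Cmi peaks beside 29, 48, 46, 21 and 1 peaks of the other lists.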

How the data were processed

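Peaks were taken as deposited. CASAVA 1.7.0, BWA, MACS2 and build dm3 are named in the submitters' processing notes; their settings, the controls and any pooling of replicates were not stated in these sources. The authors deposited for each peak its fold enrichment as a linear ratio, its score as −log10 p and its summit offset in bp. Fold and score are the authors' own and were used only within a list. Of 1691 ranks in the Cmi peak names, 6 had no line and were not analysed here.

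Positions were written 1-based. On the 6 arms, peaks that overlapped by 1 bp or more counted as shared, and both lists of prd or Hr78 counted as 1 regulator. The background of a list is the share of peaks of all lists of other regulators that overlap it. Shares have exact Clopper-Pearson intervals (95%). With 1 list per group there is no spread between replicates and no test was run. Depth is unknown. The overlap count was checked on simulated peaks. The members, lists and alternatives were chosen with earlier results of these data known. Named peaks are the 10 highest by score, the 5 highest by fold, by width, by number of other regulators, by score without another regulator and by score with br, and the 5 windows of 100 kb with the most peaks. The h comparisons across lists, the background without anti-GFP lists and the equal list lengths were added after seeing the data. No genome of dm3 was used, so no motif or gene was assigned and the planned pathway lists were not used. Python 3.11.15, numpy 2.4.6, pandas 2.3.3, scipy 1.17.1 and matplotlib 3.10.9 were used.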

Additional observations from a re-analysis of the deposited data

How the results depend on the processing

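The share of Cmi peaks with another regulator was 53.6% at an overlap of 1 bp. It was 51.0% at 50% of the shorter peak, 62.0% with edges up to 500 bp apart, 47.3% with summits within 250 bp, 48.9% in the top-scoring 50% of every list and 26.5% with the 250 best peaks of every other list. In the same order of the last 4 settings, the share with 3 or more regulators was 28.2%, 14.3%, 14.2% and 4.70%, that with Notch 35.5%, 20.7%, 20.8% and 3.63%, that with Su(H) 31.8%, 20.2%, 21.7% and 5.36%, that with CG8478 24.9%, 16.3%, 18.5% and 6.67%, and that with any of the 11 lists other than Notch, Su(H), CG8478 and br 42.0%, 28.2%, 25% and 19.1%. The br share was 4.76%, 1.96% and 2.14% with 500 bp, summits and 250 best peaks. With every peak set to 400 bp Notch had 26.0%. Looser rules and longer lists give more overlap by construction. The order of the first 5 lists held in all settings except the top-scoring 50%, where Su(H) stood above Notch, and the 250 best peaks, where CG8478 came first and Notch stood level with insv. The top-scoring 50% had 5.36 peaks per Mb on 2L, 9.21 on 2R, 6.46 on 3L, 6.88 on 3R and 7.52 on X. A shorter list has lower densities by construction. As shares of the top-scoring 50%, 2L held 14.6%, 2R 23.1%, 3L 18.8%, 3R 22.9%, arm 4 0.714% and X 19.9%. Neighbours were found for 45.3% within 1 kb, 75.8% within 20 kb and 47.6% in the top-scoring 50%. The share of shared peaks scoring above the median was 34.8% for narrow and 72.5% for wide peaks. Among the 100 highest-scoring Cmi peaks, 21 to 30 had h under every alternative. No paired analysis was possible because each group has 1 list with no value per replicate; leaving out a replicate was not possible for the same reason.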
